A study of Mus musculus with 6 samples.

Results

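This section concerns 9 genes for proteins that hold the thick filament of striated muscle in register, or that act on it: *Mybpc3*, *Mybpc2*, *Mybphl*, *Myom1*, *Myom2*, *Ttn*, *Obsl1*, *Trim63* and *Trim55*. They were chosen by symbol, through the Ensembl identifiers of GENCODE M21, out of 54532 identifiers listed, and each symbol matched 1 row. The samples are 6 RNA-seq libraries from primary cardiomyocytes isolated from hearts of mice 1 to 3 days old, whose *Rit1* locus was engineered so that Cre recombinase turns on the M90I variant of RIT1, a GTPase of the RAS family. Control cultures (AdGFP, n = 3, labelled *Rit1* +/+) received an adenovirus for GFP, and AdCre cultures (n = 3, labelled *Rit1* M90I/+) received an adenovirus for GFP and Cre. Infection was on day 3 after isolation and RNA was taken on day 6 after infection, per the methods of the study. All cultures carried virus and GFP. Wells were seeded at about the yield of a single heart, and cells with Cre but without the engineered locus are not among these samples, so effects of Cre and of the variant cannot be told apart.

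As background, the thick filament is a bundle of myosin molecules that titin, the giant protein encoded by *Ttn*, spans from the Z-disc to the M-band. Myosin-binding protein C sits as a set of stripes along the myosin bundle and tunes its interaction with actin, and mutations in the cardiac form are a common cause of hypertrophic cardiomyopathy. Myomesins cross-link myosin and titin at the M-band in the middle of the sarcomere, and obscurin-like 1 binds there too. MuRF1 (*Trim63*) and MuRF2 (*Trim55*) are ubiquitin ligases that associate with titin near the M-band, and MuRF1 marks myosin and other muscle proteins for degradation.

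Reads worked back from the deposited FPKM (fragments per kilobase of exon, scaled for library size) came to between 25.3 and 26.5 M in AdGFP and between 26.0 and 32.4 M in AdCre. Replicate numbers were taken as pairs from these same values, since no label says what a number marks. A fit with the number as a block is given beside the fit without it. The labelled cell type was checked with 10 cardiomyocyte markers, such as *Tnnt2*, *Myh6* and *Ryr2*, of which all were detected in every library. Their summed level was between 4923 and 7815 FPKM in AdGFP and between 2660 and 4348 FPKM in AdCre, and with the block 7 of the 10 were lower in AdCre and 0 higher. Markers of other cells were present as well. The summed level of 8 fibroblast markers was between 2589 and 4644 FPKM in AdGFP and between 2272 and 3324 FPKM in AdCre (3 lower with the block), that of 7 endothelial markers between 80.0 and 129.9 FPKM against between 117.3 and 183.3 FPKM (3 higher), that of 4 smooth muscle markers between 707 and 1202 FPKM against between 853 and 1102 FPKM (0 called), and that of 4 macrophage markers between 40.4 and 221.7 FPKM against between 73.4 and 275.7 FPKM (1 higher). None of the defining markers of these 4 other cell types was at 0 in all libraries. Without the block no marker on any list was called. With the block, 484 of all 13794 genes tested were lower and 364 higher. Fewer cardiomyocytes and less of a transcript in each cardiomyocyte cannot be told apart in bulk RNA, and the part of cell makeup in the changes below was not tested.

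All 9 genes had a lower mean in AdCre than in AdGFP, and each was lower in AdCre in all 3 same-numbered pairs. The log2 fold changes, on the log2(FPKM + 0.1) scale used throughout and given with their standard errors (SE), ran from -0.95 for *Mybpc3* to -0.31 for *Myom2*, with a median of -0.78 against -0.00 over the 13794 genes tested. Over all genes tested, 50.4% had a negative fold change and 24.5% decreased in all 3 pairs. The libraries of the groups did not overlap for 4 members (*Mybpc3*, *Mybpc2*, *Obsl1* and *Trim55*) and overlapped for 5, while every AdCre library lay below every AdGFP library for 8.02% of all genes.

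Without the block, 0 of the 9 members passed at a limma adjusted p under 0.05, as did 0.00725% of all genes, and voom on the recovered reads also called 0. At an unadjusted p under 0.05 there were 6 members, against 10.2% of all genes. With the replicate block, 5 members passed as lower (*Mybpc3*, *Myom1*, *Obsl1*, *Trim63* and *Trim55*), against 3.51% of all genes, and 8 had an unadjusted p under 0.05, against 24.7% of all genes. The blocked fit called 484 genes lower and 364 higher over the whole table, and 337 and 538 after rescaling to TPM, where 4 members passed. Without the intensity trend of limma it called 0 members and 0 genes in all. Without a filter on low values it called 0 members and 17 of 28445 genes. Without pair 3 no member passed, without pair 2 only *Trim55* did (limma adjusted p 0.0466), and without pair 1 *Mybphl* passed (0.0229) and *Obsl1* did not (0.0751). Over all genes these blocked fits called 1 gene without pair 3, 149 without pair 2 and 772 without pair 1, against 848 with all pairs. *Mybpc3* was picked out by the study from these same samples, so its direction is not independent evidence.

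**Figure D1:**
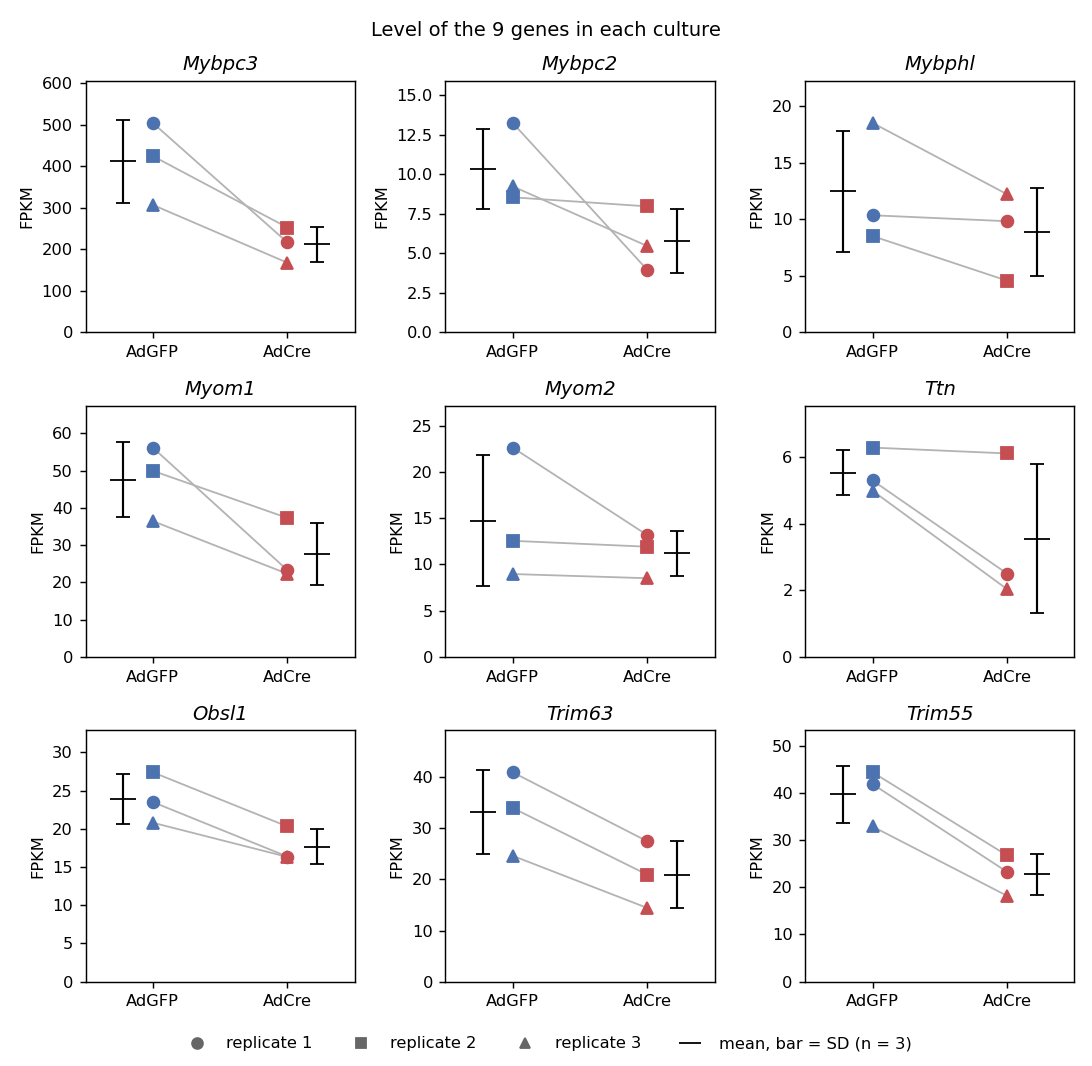
FPKM of each of the 9 genes (y axis, from 0) in the 3 AdGFP and 3 AdCre cultures, with gray lines joining cultures of the same replicate number and black bars giving the mean ± SD (n = 3). Every line slopes down, gently for *Ttn* in pair 2 (6.29 to 6.11 FPKM), *Mybphl* in pair 1, *Mybpc2* in pair 2 and *Myom2* in pairs 2 and 3.

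*Mybpc3* (ENSMUSG00000002100, chromosome 2, 91118144 to 91136516, plus strand, GRCm38) encodes cardiac myosin-binding protein C. It stood at 504.6, 424.6 and 306.9 FPKM in AdGFP 1 to 3 and at 216.4, 252.4 and 167.5 FPKM in AdCre 1 to 3. Every AdCre culture lay below every AdGFP culture, with AdGFP 1 the highest and AdCre 3 the lowest. The mean went from 412 ± 99.4 to 212 ± 42.6 FPKM (SD, n = 3 each), which is -0.95 (SE 0.24) in log2 terms, or 51.8% of the control level. The differences within pairs were -1.22, -0.75 and -0.87 (limma adjusted p 0.292, and 0.0176 with the block). These levels rest on between 19314 and 51917 reads per library, the most of the 9 genes. The 250 bases before its annotated start (chr2:91117894-91118143, plus strand, RefSeq on GRCm38.p6) are printed because they hold a match to the MEF2 site, the element of a family of muscle transcription factors. Capitals mark a muscle E-box (CAGCTG) and, nearer to the start, the MEF2 match.

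Mybpc3: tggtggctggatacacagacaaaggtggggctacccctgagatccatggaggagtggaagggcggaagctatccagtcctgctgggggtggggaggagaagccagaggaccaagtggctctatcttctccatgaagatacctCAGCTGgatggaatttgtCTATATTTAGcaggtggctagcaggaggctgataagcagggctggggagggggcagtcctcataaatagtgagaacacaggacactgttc

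*Mybpc2* (ENSMUSG00000038670, chromosome 7, 44501699 to 44524656, minus strand) encodes the fast skeletal form of the same protein. Its level was 13.2, 8.53 and 9.22 FPKM in AdGFP 1 to 3 and 3.94, 7.96 and 5.45 FPKM in AdCre 1 to 3. The groups did not overlap, but AdGFP 2 and AdCre 2 were close together. Its log2 fold change was -0.86 (SE 0.28), and the pair differences of -1.72, -0.10 and -0.75 were the most uneven of the myosin-binding genes. It did not pass in either fit (limma adjusted p 0.374, and 0.144 with the block). Of 11 skeletal muscle markers, 5 were tested (2 with a negative and 3 with a positive fold change) and 2 rose with the block, namely *Tnnt3* and *Tnni2*, the fast skeletal troponins T and I (log2 fold changes 1.76 and 1.66, limma adjusted p 0.102 and 0.144 without the block and 0.0051 and 0.0336 with it). Of the fast myosins, too low to test, *Myh4* was at 0 in 5 of 6 libraries, and *Myh1* was at 0.102, 0.106 and 0.249 FPKM in AdGFP and 0.0639, 0.0183 and 0.0739 FPKM in AdCre (3 to 39 reads). *Myh2* was at 0 in every AdCre library (0 to 9 reads). The marker *Pvalb*, also too low to test, went the other way, at 0.117, 0.189 and 0.273 FPKM in AdGFP and 1.02, 0.595 and 0.347 FPKM in AdCre (3 to 34 reads). For *Myod1* and *Myog*, likewise untested, the groups overlapped. Antisense exons of Gm44646 cover 5.32% of the exon bases of *Mybpc2*, and whether counting used strand is not given in the sources used here.

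*Mybphl* (ENSMUSG00000068745, chromosome 3, 108364911 to 108380057, plus strand) encodes myosin-binding protein H-like, which is known mainly from the atrium. It had 10.3, 8.50 and 18.5 FPKM in AdGFP and 9.81, 4.55 and 12.2 FPKM in AdCre. The third pair was the highest in both groups and the groups overlapped, with pair differences of -0.07, -0.89 and -0.60. Its log2 fold change of -0.52 (SE 0.42) passed in neither fit (limma adjusted p 0.766, and 0.119 with the block) and ran from -0.80 without AdCre replicate 3 to -0.10 without AdCre replicate 2. With 150 to 582 reads per library it is the least covered member, and antisense exons of Gm12522 cover 6.97% of its exon bases. Of 6 atrial markers 4 were tested, and 3 of them were lower with the block and 0 higher. Of those too low to test, *Bmp10* was at 0.216, 0.0878 and 0.0813 FPKM in AdGFP and 0.334, 0.267 and 0.474 FPKM in AdCre (9 to 59 reads). For *Kcna5*, the other untested atrial marker, the groups overlapped. Of 4 ventricular markers, 2 were lower with the block and 0 higher.

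*Myom1* (ENSMUSG00000024049, chromosome 17, 71002633 to 71126856, plus strand) encodes myomesin 1, the M-band cross-linker of all striated muscle. It stood at 56.2, 49.9 and 36.4 FPKM in AdGFP 1 to 3 and at 23.3, 37.3 and 22.3 FPKM in AdCre 1 to 3. AdCre 2 lay just above AdGFP 3, so the groups overlapped, although each AdCre culture was below its own pair. The mean went from 47.5 ± 10.1 to 27.6 ± 8.39 FPKM (SD, n = 3 each), or -0.80 (SE 0.25) in log2 terms, with pair differences of -1.27, -0.42 and -0.71 (limma adjusted p 0.352, and 0.0488 with the block). The blocked value lies at the threshold, and it was 0.0523 after median centring and 0.0501 with a pseudocount of 1. Antisense exons of *Myl12a* cover 1.98% of the exon bases of *Myom1*. The 250 bases before the start that RefSeq gives (chr17:71019307-71019556, plus strand), which lies inside the longer GENCODE gene, are shown for their CArG box, the element bound by serum response factor. Capitals mark a GATA match, read here on the opposite strand, and then the CArG box.

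Myom1: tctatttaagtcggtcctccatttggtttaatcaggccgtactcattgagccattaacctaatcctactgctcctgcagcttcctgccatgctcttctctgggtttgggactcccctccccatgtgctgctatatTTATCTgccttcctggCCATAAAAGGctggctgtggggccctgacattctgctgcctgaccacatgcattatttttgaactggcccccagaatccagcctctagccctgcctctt

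*Myom2* (ENSMUSG00000031461, chromosome 8, 15057653 to 15133541, plus strand) encodes M-protein, a myomesin of fast and adult muscle. Its level was 22.6, 12.5 and 8.95 FPKM in AdGFP and 13.2, 11.9 and 8.50 FPKM in AdCre. The first pair differed clearly, by -0.78 on the log2 scale, and the others hardly did, by -0.07 each. The groups overlapped, and *Myom2* passed in neither fit (log2 fold change -0.31, SE 0.34, limma adjusted p 0.840, and 0.291 with the block). Its fold change was 0.05 without AdGFP replicate 1 and -0.61 without AdGFP replicate 3 in the fits without the block. With the block and without pair 1 it was -0.07, so most of its size, though not the sign within pairs, came from pair 1.

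*Obsl1* (ENSMUSG00000026211, chromosome 1, 75479310 to 75506452, minus strand) encodes obscurin-like 1, an M-band adaptor that is not confined to muscle. It had 23.5, 27.4 and 20.8 FPKM in AdGFP 1 to 3 and 16.4, 20.3 and 16.3 FPKM in AdCre 1 to 3. The groups did not overlap, though AdCre 2 came close to AdGFP 3. The decrease was small and even, with pair differences of -0.52, -0.43 and -0.35. The log2 fold change of -0.43 (SE 0.15) left 74.1% of the control level (limma adjusted p 0.416, and 0.0372 with the block). The blocked call was lost as TPM (0.0573) and on FPKM rebuilt from recovered reads alone (0.0517).

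*Ttn* (ENSMUSG00000051747, chromosome 2, 76703980 to 76982547, minus strand) had 5.30, 6.29 and 4.99 FPKM in AdGFP and 2.50, 6.11 and 2.03 FPKM in AdCre. AdCre 1 and AdCre 3 lay far below the controls, and AdCre 2 lay within their range. The pair differences were -1.05, -0.04 and -1.25, and the mean difference was -0.78, SE 0.38 (limma adjusted p 0.560, and 0.118 with the block). It was -1.25 without AdCre replicate 2 and -0.48 without AdCre replicate 3. *Ttn* has the lowest mean FPKM of the 9 genes in both groups, though in AdCre 2 *Mybphl* was lower, and yet it has 6581 to 18629 reads per library, because its annotated exons span 116825 bases. No isoform of titin spans all of these exons, and a value per gene does not separate the long fetal and short adult forms. Its 250 bases before the start (chr2:76982548-76982797, minus strand) are printed beside those of *Mybpc3* because they are the other window with a MEF2 match, in capitals.

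Ttn: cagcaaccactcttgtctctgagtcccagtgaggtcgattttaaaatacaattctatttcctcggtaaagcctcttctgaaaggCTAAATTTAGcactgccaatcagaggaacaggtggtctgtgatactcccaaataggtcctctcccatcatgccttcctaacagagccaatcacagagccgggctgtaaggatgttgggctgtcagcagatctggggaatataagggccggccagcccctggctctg

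*Trim63* (ENSMUSG00000028834, chromosome 4, 134315120 to 134329629, plus strand) stood at 41.0, 34.0 and 24.6 FPKM in AdGFP 1 to 3 and at 27.5, 20.9 and 14.4 FPKM in AdCre 1 to 3. The cultures ranked alike in both groups, with number 1 highest and number 3 lowest, so the groups overlapped while the pairs separated. The pair differences were alike, at -0.58, -0.70 and -0.77. The mean difference of -0.68 had an SE of 0.28 without the block and 0.08 with it (limma adjusted p 0.480 and 0.0169). Without AdCre replicate 3 it was -0.44. The 250 bases before the start (chr4:134314870-134315119, plus strand) are shown because MuRF1 is known as a target of FOXO transcription factors. Capitals mark, in order, a FOXO match and an MCAT match, both read on the opposite strand, a muscle E-box beside the latter, and a TATA box.

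Trim63: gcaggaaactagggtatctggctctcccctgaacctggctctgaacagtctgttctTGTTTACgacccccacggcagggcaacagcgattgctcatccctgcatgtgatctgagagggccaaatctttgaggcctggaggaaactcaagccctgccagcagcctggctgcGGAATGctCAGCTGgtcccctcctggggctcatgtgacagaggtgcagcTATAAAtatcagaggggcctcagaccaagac

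*Trim55* (ENSMUSG00000060913, chromosome 3, 19644474 to 19692421, plus strand) had 41.9, 44.4 and 32.9 FPKM in AdGFP 1 to 3 and 23.2, 26.7 and 18.2 FPKM in AdCre 1 to 3. The groups did not overlap, and the pair differences of -0.85, -0.73 and -0.85 were the most even of the 9 genes relative to their size. The mean went from 39.7 ± 6.04 to 22.7 ± 4.31 FPKM (SD, n = 3 each), or -0.81 (SE 0.19) in log2 terms (limma adjusted p 0.261, and 0.0119 with the block, the smallest among the members in both fits). Like the other blocked member calls, this call was lost without pair 3 (limma adjusted p 0.0798), without the intensity trend (0.0582) and without a filter on low values (0.0509).

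**Figure D2:**
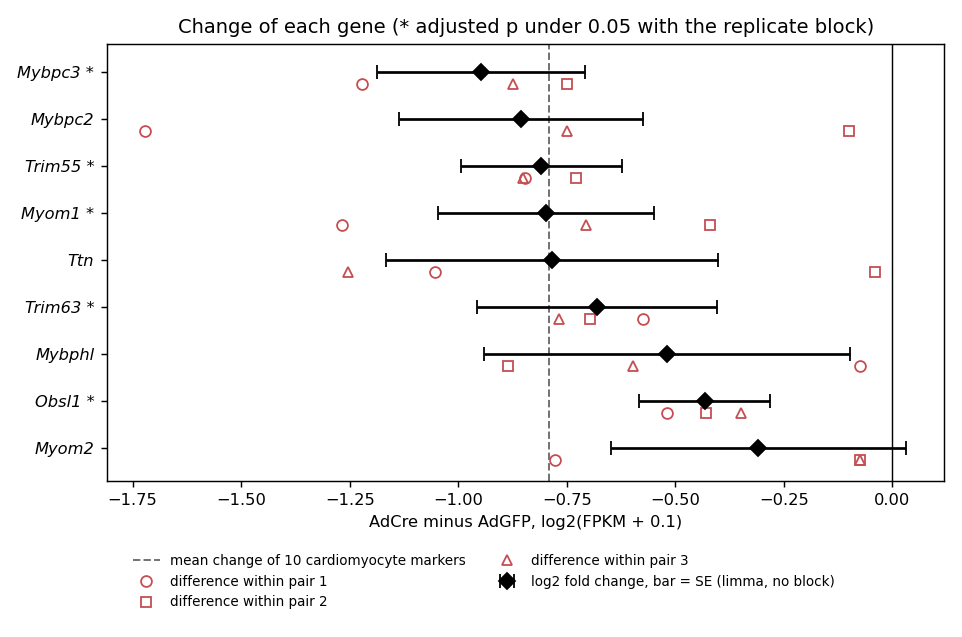
Log2 fold change of each gene (x axis, log2(FPKM + 0.1), AdCre minus AdGFP) with its standard error from the limma fit without block, and the difference within each same-numbered pair as open symbols. The dashed line is the mean change of 10 cardiomyocyte markers, at -0.79; the pairs lie close together for *Trim55*, *Trim63* and *Obsl1* and far apart for *Mybpc2* and *Ttn*.

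Levels per length followed the order *Mybpc3*, *Myom1*, *Trim55*, *Trim63*, *Obsl1*, *Myom2*, *Mybphl*, *Mybpc2* and *Ttn* by mean FPKM in AdGFP. *Mybpc3* was 8.67 times the level of *Myom1*, and these neighbors were separate in both groups. *Mybpc2* and *Ttn* were separate in AdGFP only, and *Obsl1* and *Myom2* in AdCre only. All other neighbors overlapped in both groups, so their order is not beyond the spread between cultures. *Myom1* was nevertheless above *Trim55* in 6 of 6 libraries, and *Mybphl* above *Mybpc2* in 3 of 6.

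Ratios between members within a culture do not depend on how libraries were scaled. *Myom2* to *Myom1* was 0.403, 0.251 and 0.246 in AdGFP 1 to 3 and 0.565, 0.319 and 0.381 in AdCre 1 to 3. The ratio was higher in AdCre in all 3 pairs, and the groups overlapped (difference 0.49 on the log2 scale, exact two-sided permutation p 0.3). Without AdCre replicate 1 this difference was 0.26, and without AdGFP replicate 1 it was 0.72. *Obsl1* to *Myom1* was 0.418, 0.549 and 0.571 in AdGFP against 0.703, 0.544 and 0.732 in AdCre (difference 0.37, exact p 0.3), and the difference was 0.23 without AdGFP replicate 1 and 0.50 without AdCre replicate 2. *Trim63* to *Trim55* was 0.978, 0.766 and 0.749 against 1.18, 0.783 and 0.793 (difference 0.13, exact p 0.5), so MuRF1 and MuRF2 transcripts kept nearly the same ratio in pairs 2 and 3. *Mybphl* to *Mybpc3* (difference 0.43, exact p 0.7), *Mybpc2* to *Mybpc3* (0.09, exact p 0.7) and *Ttn* to *Myom1* (0.01, exact p 1.0) moved in both directions among the pairs. None of the 6 ratios passed, and adjusted over the 6 the smallest p was 0.84. The smallest p that 3 cultures against 3 allow is 0.1.

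**Figure D3:**
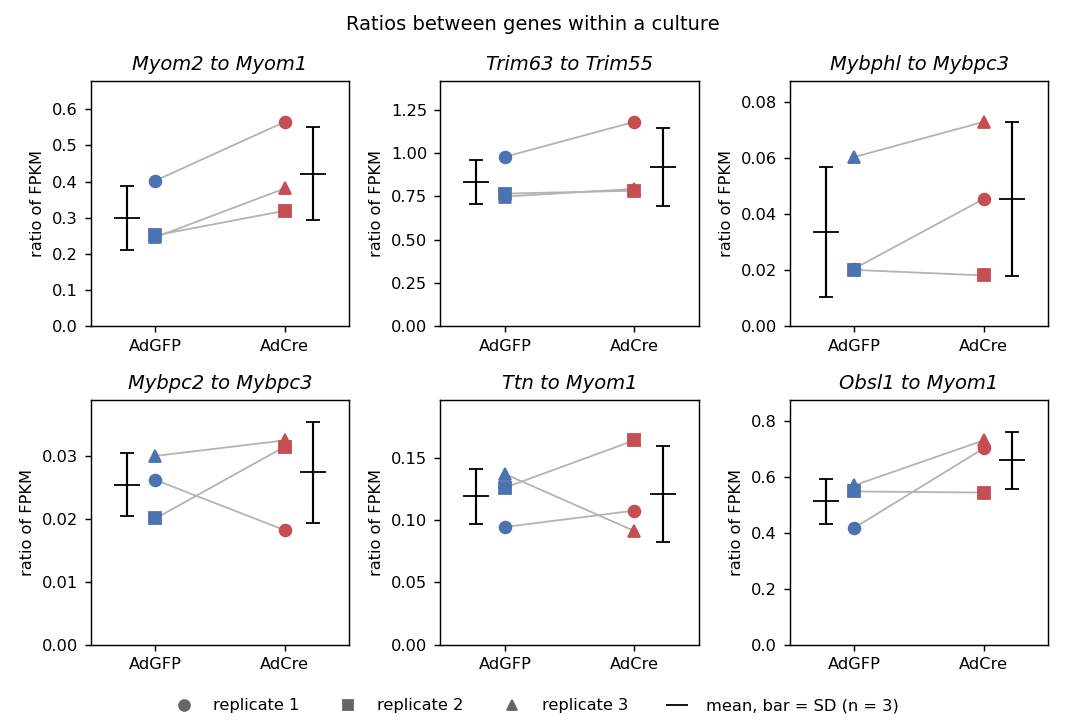
Ratio of FPKM between 2 of the genes within each culture (y axis, from 0), with lines joining same-numbered cultures and bars giving the mean ± SD (n = 3). *Myom2* to *Myom1* and *Trim63* to *Trim55* are higher in AdCre in all 3 pairs, and the other ratios go both ways.

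The members were then set against the 10 cardiomyocyte markers, whose mean log2 level was 0.79 lower in AdCre (8.11 against 7.32, exact permutation p 0.1), by -0.96, -0.53 and -0.88 in pairs 1 to 3. The markers themselves ranged widely, with fold changes from -1.31 (*Pln*, phospholamban) to -0.16 (*Tnnc1*, cardiac troponin C), and the fold changes of all 9 members lie within that range. Relative to that mean, *Myom1* differed by -0.01, *Ttn* by 0.01, *Trim55* by -0.02, *Mybpc2* by -0.07, *Trim63* by 0.11 and *Mybpc3* by -0.16 on the log2 scale. *Mybphl* differed by 0.27, *Obsl1* by 0.36 and *Myom2* by 0.48, and the latter 2 were higher relative to the markers in all 3 pairs. Only for *Obsl1* were the groups separate (exact permutation p 0.1, the smallest possible), and adjusted over the 9 members the smallest p was 0.9. This exact test cannot reach 0.05 with 3 cultures a group, so it does not settle whether a member moved apart from the markers. Leaving out 1 culture moved the difference for *Mybpc3* between -0.23 (without AdGFP replicate 3) and -0.06 (without AdGFP replicate 1), that for *Obsl1* between 0.24 when AdCre 3 was left out and 0.45 when AdCre 2 was, and that for *Myom2* between 0.31 (without AdGFP replicate 3) and 0.78 (without AdGFP replicate 1).

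Among 6 lists of companion genes, 48 of 56 genes were tested. Of these, 41 had a negative fold change, against 50.4% of all genes tested, with a median of -0.37. Without the block 0 were called and 12 had an unadjusted p under 0.05 in limma, against 10.2% of all genes, and voom called 0. With the block 13 were called, all lower, against 3.51% of all genes called lower. The count was 6 without pair 2 and 0 without pair 3, where 149 and 1 were called over all genes. Of 11 other sarcomere proteins built of immunoglobulin and fibronectin domains, 6 were too low to test. *Mybpc1*, *Mybph*, *Myom3*, *Neb*, *Myot* and *Igfn1*, which belong mainly to skeletal muscle, were those 6, and *Igfn1* was listed at 0 in all 6 libraries. *Mybph* was higher in AdCre, at 0.104, 0.102 and 0.105 FPKM in AdGFP and 0.630, 0.316 and 0.232 FPKM in AdCre (6 to 47 reads). *Mybpc1* was at 0 in AdGFP and at most 0.0257 FPKM in AdCre (0 to 3 reads). For *Myom3*, *Neb* and *Myot* the groups overlapped. The 5 that were tested had negative fold changes, and 1 fell with the block, *Nebl* (nebulette, log2 fold change -0.50, limma adjusted p 0.0405).

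All 10 genes for myosin chains and their assembly were negative, with a median of -0.49, and 5 fell with the block. Those with the smallest p were *Myl2*, the ventricular regulatory light chain (-1.12, limma adjusted p 0.00969), *Mylk3*, the kinase of that light chain (-0.79, 0.0144), and *Smyd1*, a factor in thick filament assembly (-0.59, 0.0286). Of 10 titin partners tested, 4 fell with the block, among them *Fhl2* (-0.91, 0.0103), which binds titin at the N2B and M-band regions, *Tcap* (-0.96, 0.0144), the telethonin that caps titin at the Z-disc, and *Actn2*, alpha-actinin 2 (-1.05, 0.0181). *Actn2* and *Myh6* are also cardiomyocyte markers, and *Myl2*, *Myl3*, *Myl4* and *Myl7* are on the atrial or ventricular lists. Of the titin splicing factors 2 of 5 fell with the block, *Rbm24* (-0.93, 0.0122) and *Rbm20* (-0.52, 0.0269). RBM20 represses inclusion of titin exons, but exon use cannot be read from these values.

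The other muscle ubiquitin ligases had 5 negative and 3 positive fold changes. Of 8 tested, 1 fell with the block, *Klhl31* (-0.82, 0.027), with a median over the list of -0.15. *Fbxo32* (atrogin-1), known with MuRF1 as a marker of muscle atrophy, was at 4.49, 7.89 and 7.44 FPKM in AdGFP and 7.11, 5.49 and 6.94 FPKM in AdCre (log2 fold change 0.01, limma adjusted p 0.995), and *Trim54* (MuRF3) was at 0.05 (0.979). These genes were named after their values were seen, and the difference between *Trim63* and either was not tested. In the list of FoxO factors and atrophy genes, 0 of 10 were called in either fit (1 at an unadjusted p under 0.05 without the block), with a median of -0.20. The smallest p without the block was that of *Ddit4*, an inhibitor of mTOR signaling (-0.42, limma adjusted p 0.416, and 0.131 with the block). With the block the smallest was that of *Gabarapl1*, an autophagy gene (-0.31, limma adjusted p 0.0820).

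**Figure D4:**
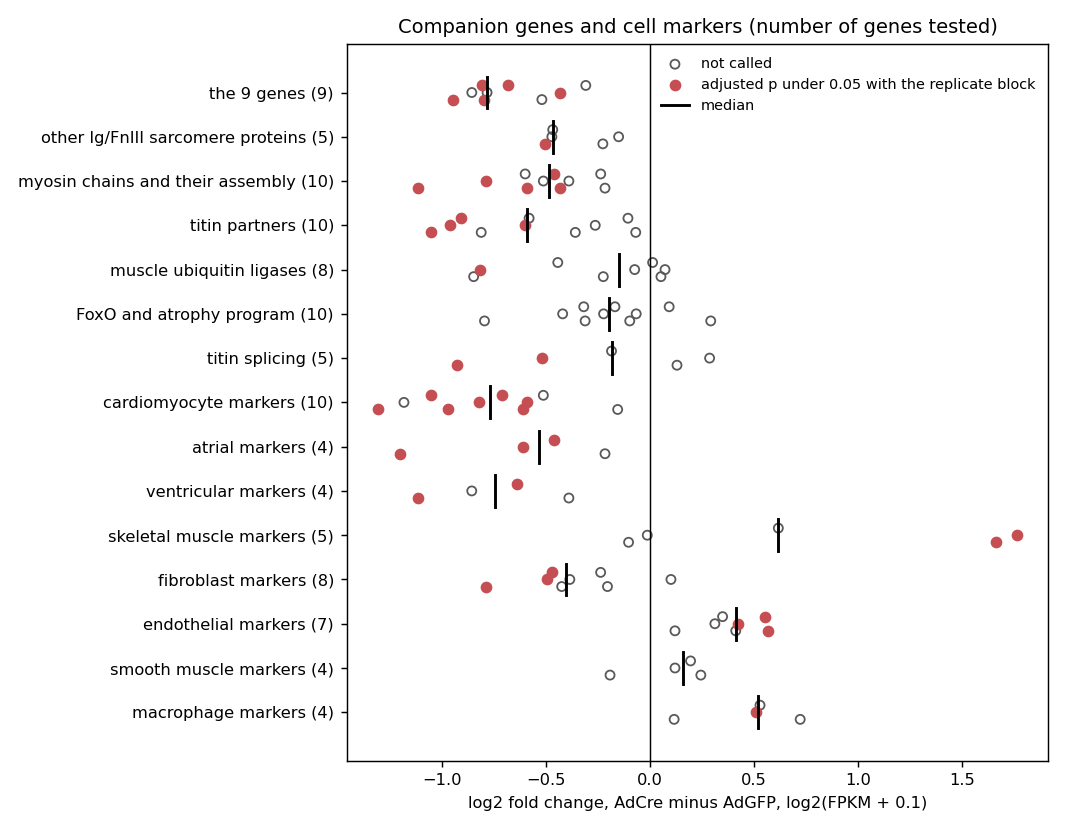
Log2 fold change (x axis, AdCre minus AdGFP) of every gene tested in the 9 members, the 6 companion lists and the 8 marker lists, with filled points for genes called with the replicate block and black ticks for list medians. Members have a median of -0.78 and cardiomyocyte markers one of -0.77, while the ubiquitin ligases, atrophy genes and titin splicing factors center nearer to 0.

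The promoter windows printed above came from a table of RefSeq promoters, in which 7 of the 9 genes were matched (not *Myom2* and *Trim55*). Both strands were searched for 9 motifs, and no match overlapped another. A MEF2 site was found in the windows of 2 of 7 members and in 0.508% of all 32851 windows of 250 bases, and a CArG box in 1 of 7 and 1.47%. The muscle E-box (CAGCTG) was found in 3 of 7 and 13.0%, the MCAT element (CATTCC) in 2 of 7 and 12.6%, and the GATA-factor element, spelled AGATAA, in 2 of 7 and 9.99%. The FOXO element (GTAAACA) was found in 1 of 7 windows of members and in 3.17% of all windows. The box bound by the general TATA-binding factor, spelled TATAAA, was found in 1 of 7 and 12.4%. The AP-1 element (TGAGTCA) and the CRE core (TGACG) were found in 0 of 7, and in 4.46% and 17.8% of all windows. These matches are descriptions of sequence only.

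Genes with the most similar pattern over the 6 libraries were found by the root mean square difference of log2 values centered on each gene. For *Mybpc3* they were *Frmd5*, *Fxyd1* and *Lrrc2* (0.09, 0.11 and 0.11). For *Trim55* they were *Ablim3*, *Usp13* and *Pde4dip* (0.04, 0.06 and 0.08), and *Pde4dip* (myomegalin) was also among those for *Myom1* (0.11), with *P4ha2* (0.09) and the desmosomal *Pkp2* (0.10). For *Trim63* they were *Gsta4*, *Srpk3* and *Nppa*, the atrial natriuretic peptide gene (0.07, 0.07 and 0.09). Among the members themselves, *Mybpc3* and *Trim55* were most alike (0.14) and *Mybphl* and *Ttn* least (1.00). All of these values come from the same 6 libraries and share their scaling.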

How the data were processed

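RNA-seq values of 6 samples (3 AdGFP, 3 AdCre) were analyzed. The authors deposited 1 table of FPKM per gene and sample, without pooling of replicates. The processing notes of the submitters name fastp, STAR 2.5, HTSeq 0.6.1 and mm10, with no roles. The annotation, the use of strand and the scaling are not given in the sources used here. Of 54532 identifiers, 54495 were found in GENCODE M21 (GRCm38), from which symbols, exon lengths and gene coordinates were taken. Multiplying FPKM by exon length and dividing by the step of 1 read gave whole numbers, within 0.02, for between 97.2% and 97.4% of values under 1000 reads. Their sum over genes gave the reads counted to genes in each library, which is not its full sequencing depth.

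The 13794 genes whose mean reached 0.5 FPKM were tested as log2(FPKM + 0.1) in limma 3.58.1 (R 4.3.3) with an intensity trend. P-values were adjusted over all genes tested by the Benjamini-Hochberg method, with a threshold of 0.05. Deviations from the group means correlated between same-numbered samples (0.568, 0.268 and 0.506 for replicates 1 to 3) and between -0.497 and 0.036 for others, so the numbers were taken as pairs. This rests on the values, since no label says what a number marks. The labels call the samples biological replicates. Ratios and levels relative to markers were compared by exact permutation. The fits were tested on simulated data. Alternatives were 2 pseudocounts, 2 filters, 2 scalings, no trend, the block and leaving out each sample. After the data were seen, voom on recovered reads, FPKM rebuilt from those reads and further blocked fits were added. Members and lists were chosen with earlier results of these data known. Named companion genes were at most 3 blocked calls per list by p, or, where none was called, the smallest p without the block. *Fbxo32*, *Trim54* and *Gabarapl1* fall outside this rule and were named after their values were seen, as were companion genes below the level tested. At most 0.875% of the 50-base transcript words of a member occur in other genes (*Obsl1*). Python 3.11.15, numpy 2.4.6, pandas 2.3.3 and matplotlib 3.10.9 were used.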

Additional observations from a re-analysis of the deposited data

How the results depend on the processing

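Without the block, no member and no companion gene was called under any alternative, and the 9 members had a negative fold change in every fit but the one without AdGFP replicate 1, where *Myom2* was at 0.054 (its lowest was -0.61, without AdGFP replicate 3). With the replicate block, 5 members and 13 companion genes were called. The blocked fit called 848 genes in all, and the counts in brackets below are also over all genes. Together with the block, the members and companion genes called were 4 and 13 with a pseudocount of 1 (784) and 5 and 13 with 0.01 (782). They were 5 and 16 with a mean of at least 1 FPKM (922 of 12197 tested), 4 and 12 as TPM (875) and 4 and 13 with median centring (778). On FPKM rebuilt from recovered reads they were 4 and 11 (874), and with voom 7 and 21 (1739). They were 0 and 0 without a filter, and also without a trend or without pair 3, where limma lost most of its calls over all genes too (17, 0 and 1 called). They were 1 and 6 without pair 2 (149), and 5 and 14 without pair 1 (772).

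Several differences changed sign, *Mybphl* relative to the markers and to *Mybpc3* among them. With a pseudocount of 1, *Mybpc2* and *Myom1* relative to the cardiomyocyte markers were at 0.022 and 0.0052, and with 0.01 *Ttn* relative to *Myom1* and to the markers was at -0.0042 and -0.012. Over the fits that leave out 1 sample, the log2 difference relative to the markers ran from -0.25 to 0.16 for *Mybpc2*, -0.19 to 0.88 for *Mybphl*, -0.058 to 0.077 for *Myom1*, -0.27 to 0.15 for *Ttn*, -0.13 to 0.28 for *Trim63* and -0.062 to 0.049 for *Trim55*. That of the ratio ran from -0.065 to 0.25 for *Trim63* to *Trim55*, -0.017 to 0.98 for *Mybphl* to *Mybpc3*, -0.068 to 0.36 for *Mybpc2* to *Mybpc3* and -0.22 to 0.19 for *Ttn* to *Myom1*. Within pairs (the block) the exact sign-flip p of 3 pairs cannot go below 0.25. *Mybphl* had the fewest reads of the members (150 to 582 per library). The causes were not tested.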

Other observations

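The 9 members took between 0.264% and 0.372% of recovered reads in AdGFP and between 0.154% and 0.258% in AdCre. *Mybpc3* made up between 66.2% and 70.2% of their summed FPKM in AdGFP and between 62.8% and 65.0% in AdCre, without overlap of the groups. *Ttn* held between 15.5% and 21.5% of their reads in AdGFP. In AdCre it held 15.7%, 27.5% and 15.8% in cultures 1 to 3, and AdCre 2 was the highest of the 6 cultures. These shares were looked at after the values of the members were known and were not tested.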
